A study of Rattus norvegicus with 20 samples.

Results

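Hepatic mRNA of Pnpla3 and of 9 further genes of the lipid droplet was examined: Pnpla2, Cidea, Cideb, Cidec, Plin2, Plin5, Lipe, Mgll and Abhd5. The genes were taken by symbol, and they were measured by 18 probe sets (groups of short probes for 1 transcript) among 31039 tested, or by 10 genes among 14217. The set was chosen by the diet differences of Pnpla3 and Cidea, known from earlier results of these arrays, joined by genes of the same organelle, and each gene is given by its brightest probe set on average, with the remaining ones as a check. Livers came from 20 male Sprague-Dawley rats obtained at 4 weeks of age, 5 in each of 4 diet groups, with 1 array per rat. For 3 weeks the TF rats ate tofu with fish oil, the TS rats tofu with soybean oil, the CF rats casein with fish oil and the CS rats casein with soybean oil. All diets held 20% protein and 15% fat, and in TF and CF 50 g/kg of fish oil took the place of soybean fat. By the study's diet table the TF and TS diets also held some casein beside the tofu, and tofu carried soybean fat of its own, so the comparison is of tofu in place of most of the casein. By the study's methods, only rats of average food intake were put on arrays.

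Lipid droplets are stores of triacylglycerol and cholesterol ester, wrapped in a phospholipid layer and coated with proteins. Perilipins (Plin2, Plin5) shield the core, CIDE proteins (Cidea, Cideb, Cidec) enlarge droplets or load lipid onto lipoproteins, and lipases take triacylglycerol apart one fatty acid at a time. Pnpla2 (adipose triglyceride lipase) removes the first fatty acid with the help of its activator Abhd5, Lipe (hormone-sensitive lipase) the next, and Mgll (monoacylglycerol lipase) the last. Pnpla3 is the closest relative of Pnpla2. It sits on hepatocyte droplets, its mRNA is known to be induced by refeeding through SREBP-1c and ChREBP, and its human form is known for a variant linked to fatty liver.

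Each value is a z score, a logarithmic measure of probe set brightness, and 0.2 in z equals a fold of 1.41. Array medians lay between -0.10 and 0.02, so values near or below 0 are those of a dim or average probe set. No fold is given where a group mean lay below the highest of these medians. Pnpla3 and Cidea had been listed by the study on these same arrays, so their diet differences are given as descriptions, without a test. For the other 8 genes, p was adjusted by the Benjamini-Hochberg method over all 31039 probe sets fitted with limma, with a threshold of 0.05.

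Across the series, arrays correlated with each other at 0.929 to 0.965, and no 2 arrays held the same values. The 5′ beta-actin control was low on 4 arrays, 1 in each diet group (1.30 to 1.42, against 1.86 to 2.13 on the other 16). These were TF-3, TS-1, CF-1 and CS-1, the lowest-numbered rat of each group. The 3 arrays least correlated with the rest were all from tofu rats (median r of 0.938 to 0.944, against 0.951 to 0.958).

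Pnpla3, Cidea and Plin2 are the genes on which the results turn, and the sequence ahead of their start sites is shown. Pnpla3 mRNA differed by protein and by oil, and that of Cidea by oil. That of Plin2 differed by protein by a small amount, which did not pass under several alternative settings given below. The sequences are from RefSeq (GRCr8), 5′ to 3′ on the gene's strand: chr7:117173278-117173484 (plus strand, up to the first annotated base of Pnpla3), chr18:63164567-63164816 (plus strand) and 30 bases at chr5:106229059-106229088 (minus strand). Capitals mark matches, on either strand, to CCAAT (the NF-Y box, which reads ATTGG on the other strand), GGGCGG (the GC box), CACGTG (an E-box) and TGACGTCA (the cyclic AMP response element).
Pnpla3: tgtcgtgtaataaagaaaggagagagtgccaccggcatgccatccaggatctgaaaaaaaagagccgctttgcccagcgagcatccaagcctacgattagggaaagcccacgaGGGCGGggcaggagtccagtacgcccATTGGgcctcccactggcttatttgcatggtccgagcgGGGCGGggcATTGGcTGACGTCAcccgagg
Cidea: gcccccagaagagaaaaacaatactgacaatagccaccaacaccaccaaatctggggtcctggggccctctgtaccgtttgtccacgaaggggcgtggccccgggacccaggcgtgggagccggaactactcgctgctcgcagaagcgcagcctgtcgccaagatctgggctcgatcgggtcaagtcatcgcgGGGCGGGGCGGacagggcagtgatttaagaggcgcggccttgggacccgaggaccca
Plin2: tatCACGTGgcgcggaggcatGGGCGGggc
Positions are counted back from the start site in the table, which for Pnpla3 lies shortly past the stretch shown. In the 250 bases ahead of the Pnpla3 start site, NF-Y boxes began at -111 and -64, GC boxes at -137 and -73 and a cyclic AMP response element at -58. The Cidea region held GC boxes at -57 and -52, which share 1 base. The first of the 2 start sites of Plin2 had an E-box at -67 and a GC box at -49, while the second had 0 matches to any motif searched. Both Plin2 regions lie inside the annotated gene (chr5:106202634-106258748, minus strand), so the sequence ahead of its annotated 5′ end was not searched. Among 33469 upstream regions of this length, CCAAT was found in 34.0%, GGGCGG in 30.5%, CACGTG in 5.59% and TGACGTCA in 1.59%. Of the 10 genes 9 had a sequence at hand, and these motifs were found in 3, 7, 2 and 1 of the 9. The nuclear receptor half-site AGGTCA repeated with 1 base between the copies (a PPAR form, in 0.0508% of regions) or with 4 bases between them (an LXR form, 0.00299%) was in 0 of the 9. A match or its absence describes these letters in this window only.

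Pnpla3 mRNA was far lower in the tofu groups on all 3 of its probe sets. It was lower with fish oil on casein on all 3, and on tofu without overlap on the brightest alone, whose values come first. In TF livers its z was -0.44, -0.58, -0.81, -0.34 and -0.46. In TS livers it was 0.31, -0.29, -0.06, -0.06 and -0.16. None of these 10 rats came near the casein groups, and every TF rat was below every TS rat. In CF livers z was 1.46, 1.61, 0.90, 1.45 and 1.09. In CS livers it was 1.76, 2.21, 1.87, 2.0 and 2.13. Every CF rat was likewise below every CS rat, so the 4 groups did not overlap with each other. The means were -0.52 ± 0.18 in TF, -0.05 ± 0.22 in TS, 1.30 ± 0.30 in CF and 1.99 ± 0.18 in CS (SD, n = 5 each). The difference of tofu minus casein was -1.93 (SE 0.09) and that of fish oil minus soybean oil -0.58 (SE 0.09). Both tofu means lay below the highest array median, so the size of the tofu difference may be limited by dimness, and it is given in z alone. Between the casein groups, where both means were well above it, the difference of CF minus CS was -0.69 (SE 0.13), a 3.30-fold lower level with fish oil. Without the 3 arrays least correlated with the rest, tofu minus casein was -1.865 (SE 0.11) and fish oil minus soybean oil -0.54 (SE 0.11), and without the 4 low 5′ beta-actin arrays they were -2.0 and -0.59. In RNA from whole liver, fewer cells that express a gene and less mRNA per cell cannot be told apart.

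The remaining 2 probe sets of Pnpla3 gave the same order of tofu below casein, and they differed from the first in the tofu groups. On 1380013_at the means were -0.30 ± 0.21 in TF, -0.12 ± 0.29 in TS, 0.95 ± 0.18 in CF and 1.68 ± 0.21 in CS. On 1380643_at they were -0.55 ± 0.08 in TF, -0.52 ± 0.06 in TS, 0.29 ± 0.11 in CF and 0.91 ± 0.22 in CS (SD, n = 5 each). On both, TF and TS overlapped while CF and CS did not. Tofu minus casein came to -1.52 and -1.13, and fish oil minus soybean oil to -0.45 and -0.32. The oil difference on casein was -0.73 and -0.62, that on tofu -0.18 and -0.03. The oil difference on tofu minus that on casein was thus 0.22 on the first probe set, 0.55 on 1380013_at and 0.59 on 1380643_at. On all 3 probe sets both tofu means lay below the highest array median. On the brightest, TF was nonetheless below TS (TF minus TS -0.47, SE 0.13). Whether dimness limits the oil difference on tofu was not tested, and these values are given without a test.

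**Figure D1:**
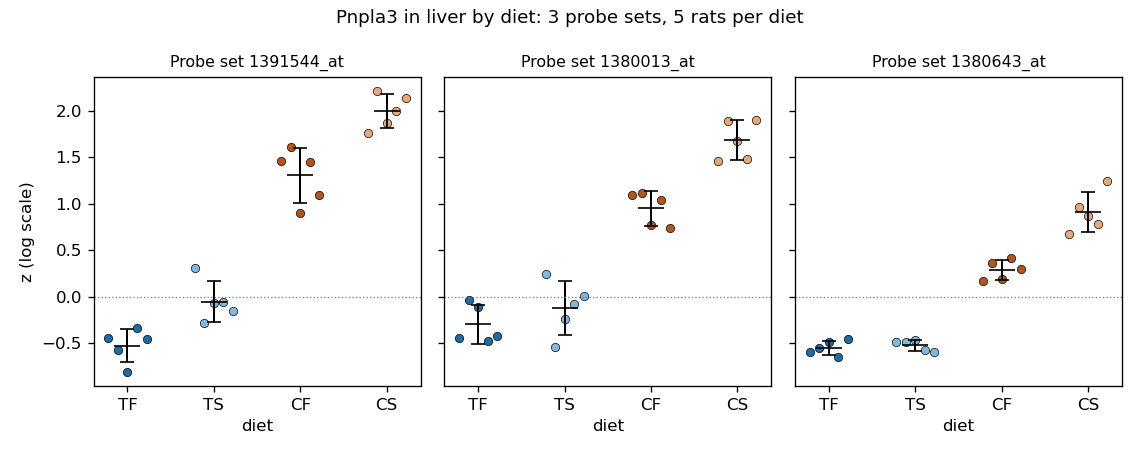
Pnpla3 z (log scale, vertical axis) by diet group (horizontal axis) on each of its 3 probe sets, with 1 point per rat and bars for the mean ± SD of 5 rats. All 10 tofu rats sit below all 10 casein rats on each probe set, and TF lies below TS without overlap only on 1391544_at.

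Cidea, the CIDE protein best known from brown fat, was higher with fish oil on both protein sources. Its z was 0.88, 0.64, 0.40, 0.83 and 0.86 in TF livers. It was 0.39, 0.36, 0.28, 0.17 and 0.14 in TS livers. With tofu every fish oil rat was thus above every soybean oil rat. On casein, z was 0.67, 0.58, 0.74, 0.38 and 0.62 in CF livers. It was 0.35, 0.12, 0.31, 0.27 and 0.15 in CS livers. Here too the oils did not overlap, and 9 of 10 fish oil rats were above all 10 soybean oil rats. The means were 0.72 ± 0.20 in TF, 0.27 ± 0.11 in TS, 0.60 ± 0.14 in CF and 0.24 ± 0.10 in CS (SD, n = 5 each). Fish oil minus soybean oil was 0.41 (SE 0.06), a 2.03-fold higher level, with 0.46 on tofu and 0.36 on casein. The oil difference on tofu was 0.10 above that on casein. Tofu minus casein was 0.08 (SE 0.06). Without the 3 least correlated arrays the oil difference was 0.46 and the protein difference 0.16, and without the 4 low 5′ beta-actin arrays they were 0.41 and 0.06. The spread of the fish oil groups was wider than that of the soybean oil groups, with the lowest fish oil rat of each protein near the highest soybean oil rats.

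Because Cidea is abundant in adipose tissue, the adipocyte markers were read on the same arrays. Of 10 markers 9 were measured, and 6 had a mean z at or below the highest array median, among them Adipoq (-0.31), Lep (-0.38), Plin1 (-0.26) and Fabp4 (-0.19). Above it were Plin4 (0.105), Cfd (0.81) and Car3 (3.20), and Car3 raised the mean of the 9 the most. The mean z of the 9 ranged from 0.22 to 0.38 in TF, 0.15 to 0.34 in TS, 0.21 to 0.26 in CF and 0.24 to 0.35 in CS, and none passed for the oil difference. Car3, which liver also expresses, was the only one to pass for protein (0.17, adjusted p = 0.039). The 10 hepatocyte markers averaged 2.95 to 3.18 per array, and of 8 pancreas and 8 skeletal muscle markers 7 each were at or below the array median. Among 10 stellate cell markers Rgs5 was higher with tofu (0.28, adjusted p = 0.015 by limma). Its mean z of 0.013 lay below the highest array median. Over all genes, 0.921% were called for protein and 0.302% for oil. No Kupffer cell or endothelial cell marker passed for either. All 7 measured Kupffer cell markers (median 0.04) and all 6 endothelial cell markers (median 0.06) nonetheless had protein differences above 0, where the median of all genes was 0.01. For oil, all 7 Kupffer cell markers (median -0.06) and all 10 stellate cell markers (median -0.05) had differences below 0, where that of all genes was -0.0018. The part of these markers in the diet differences was not tested.

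Plin2, the main perilipin of hepatocyte droplets, was lower with tofu by a small amount. In TF livers its z was 2.54, 2.57, 2.47, 2.49 and 2.52, and in TS livers 2.60, 2.49, 2.52, 2.42 and 2.41. In CF livers it was 2.68, 2.79, 2.67, 2.61 and 2.69, and in CS livers 2.67, 2.61, 2.69, 2.55 and 2.73. Each of the 10 tofu rats lay under the casein mean, and 8 lay under every casein rat. The means were 2.5 ± 0.06 with tofu and 2.67 ± 0.07 with casein (SD, n = 10 each). The difference was -0.17 (SE 0.03, adjusted p = 0.0183 by limma), a 1.33-fold lower level. It was the only call among the 8 tested genes, where 0.557% of all probe sets were called for protein and 0.258% were called lower. The difference was -0.17 with fish oil and -0.16 with soybean oil, neither of which passed alone (adjusted p = 0.304 and 0.309). The dimmer probe set of Plin2 gave the same difference without passing (-0.17, SE 0.04, adjusted p = 0.109). The call was also lost when arrays were scaled to equal median and interquartile range (-0.15, adjusted p = 0.0617), without the 4 arrays whose 5′ beta-actin control was low (-0.18, adjusted p = 0.0594) and without the 3 arrays least correlated with the rest (-0.16, adjusted p = 0.0887), the beta-actin and correlation settings being chosen after seeing the data. The oil difference was 0.03 (adjusted p = 0.998, 95% interval -0.03 to 0.10).

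Plin5, the perilipin that ties droplets to mitochondria in oxidative tissues, was the gene with the largest oil difference among the 8, but it did not pass. Its z was 0.30, 0.34, 0.11, 0.20 and 0.19 in TF livers, against 0.09, 0.08, 0.00, -0.05 and -0.05 in TS livers. On tofu the oils did not overlap. On casein it was 0.24, 0.10, 0.43, 0.40 and 0.27 in CF livers, against 0.28, 0.06, -0.11, 0.16 and 0.20 in CS livers. There they overlapped, although all 10 fish oil rats were above the soybean oil mean. Fish oil minus soybean oil was 0.19 (SE 0.05, 95% interval 0.08 to 0.30, unadjusted p = 0.00153, adjusted p = 0.325 by limma). The TS mean of 0.016 lay below the highest array median, so the size of this difference may be limited by dimness. Tofu minus casein was -0.08 (adjusted p = 0.634).

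**Figure D2:**
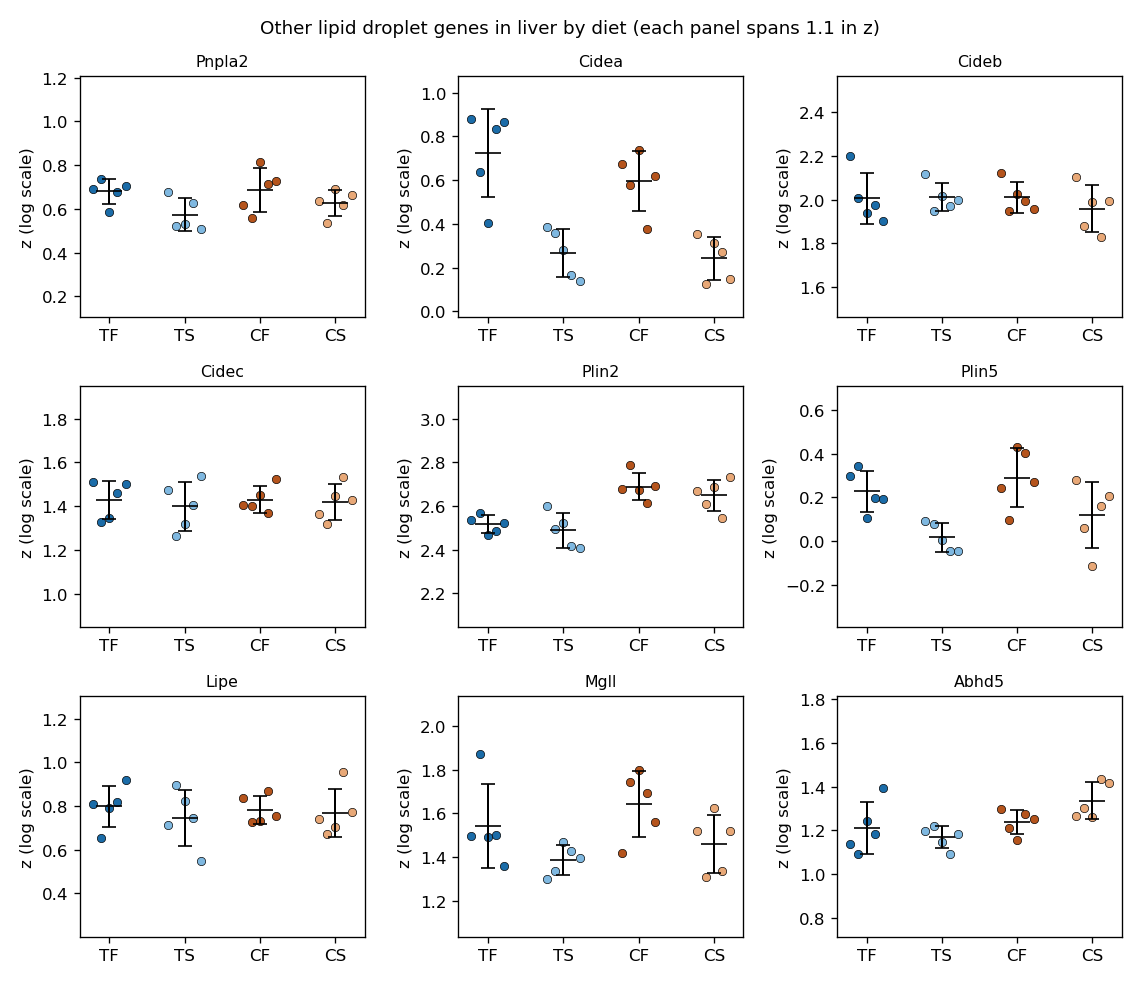
z (log scale, vertical axes, each spanning 1.1) of the other 9 genes by diet group (horizontal axes), with 1 point per rat and bars for the mean ± SD of 5 rats. Cidea separates by oil, with 0.40 to 0.88 in TF against 0.14 to 0.39 in TS, Plin2 shifts by protein, and Cideb, Cidec and Lipe overlap in all 4 groups.

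Neither CIDE relative of Cidea passed for oil or protein. Cideb, which loads triacylglycerol onto very low density lipoproteins in liver, ranged over 1.90 to 2.20 in TF, 1.95 to 2.12 in TS, 1.95 to 2.12 in CF and 1.83 to 2.10 in CS. Its oil difference was 0.02 (adjusted p = 1.0, 95% interval -0.06 to 0.11) and its protein difference 0.02 (adjusted p = 0.900, interval -0.06 to 0.11). Cidec, which fuses small droplets into large ones, ranged over 1.33 to 1.51 in TF, 1.26 to 1.54 in TS, 1.37 to 1.52 in CF and 1.32 to 1.53 in CS. Its oil difference was 0.02 (adjusted p = 1.0, interval -0.06 to 0.10) and its protein difference -0.01 (adjusted p = 0.960, interval -0.09 to 0.07). The difference between Cidea and its relatives was not tested.

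None of the lipases of the hydrolytic cascade, nor Abhd5, passed for protein or oil, where 0.193% of all probe sets were called for oil. Pnpla2 was 0.69, 0.74, 0.58, 0.68 and 0.71 in TF livers and 0.68, 0.52, 0.53, 0.63 and 0.51 in TS livers. On casein it was 0.62, 0.56, 0.82, 0.71 and 0.73 in CF livers and 0.64, 0.53, 0.69, 0.62 and 0.66 in CS livers. The groups overlapped, with an oil difference of 0.08 (adjusted p = 0.845, unadjusted p = 0.0316) and a protein difference of -0.03 (adjusted p = 0.825, 95% interval -0.11 to 0.04), beside the -1.93 of its relative Pnpla3. Abhd5 was 1.21 ± 0.12 in TF, 1.17 ± 0.05 in TS, 1.24 ± 0.06 in CF and 1.34 ± 0.08 in CS (SD, n = 5 each). Its protein difference was -0.10 (adjusted p = 0.360), and 0.04 on its second probe set. On soybean oil every tofu rat was below every casein rat (TS minus CS -0.17, adjusted p = 0.413 by limma), and on fish oil they overlapped. The second probe set gave -0.01 for TS minus CS. Lipe was 0.80 ± 0.10 in TF, 0.74 ± 0.13 in TS, 0.78 ± 0.06 in CF and 0.77 ± 0.11 in CS (SD, n = 5 each). Its differences were -0.0045 for protein and 0.03 for oil, with adjusted p of 0.985 and 1.0.

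Mgll had oil differences of similar size on 3 of its 4 probe sets, none of which passed. On the brightest, z was 1.5, 1.87, 1.49, 1.5 and 1.36 in TF livers, against 1.30, 1.33, 1.47, 1.43 and 1.40 in TS livers. It was 1.42, 1.74, 1.80, 1.69 and 1.56 in CF livers, against 1.52, 1.31, 1.62, 1.34 and 1.52 in CS livers. The oils overlapped on both proteins, and 8 of 10 fish oil rats were above the soybean oil mean. The oil difference was 0.17 (SE 0.06, adjusted p = 0.698, unadjusted p = 0.0129), and 0.15, 0.16 and 0.02 on the other probe sets, the last of which was below every array median in all 4 groups. The protein difference was -0.09 (adjusted p = 0.683).

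Over the 8 tested genes, 7 protein differences were below 0 with a median of -0.06, where the median of all 14217 genes was 0.01, and 7 oil differences were above 0 with a median of 0.03, where that of all genes was -0.0018. For oil, for the interaction of protein and oil and for each single-diet comparison 0 of the 8 were called. For the interaction 0% of all probe sets were called, with 1065 at an unadjusted p under 0.05 in limma. Of all probe sets, 0.0709% were called for TS minus CS, 0.0677% for TF minus CF, 0.0451% for CF minus CS and 0.0677% for TF minus TS. At an unadjusted p under 0.05, limma gave 1722 of all probe sets for oil and 2218, 2142, 1093 and 1809 for these 4 comparisons in that order. The median SE of a main difference over all probe sets was 0.05, and oil differences as large as 0.19 (Plin5) and 0.17 (Mgll) did not pass, so differences of that size or smaller were not detectable for every gene.

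**Figure D3:**
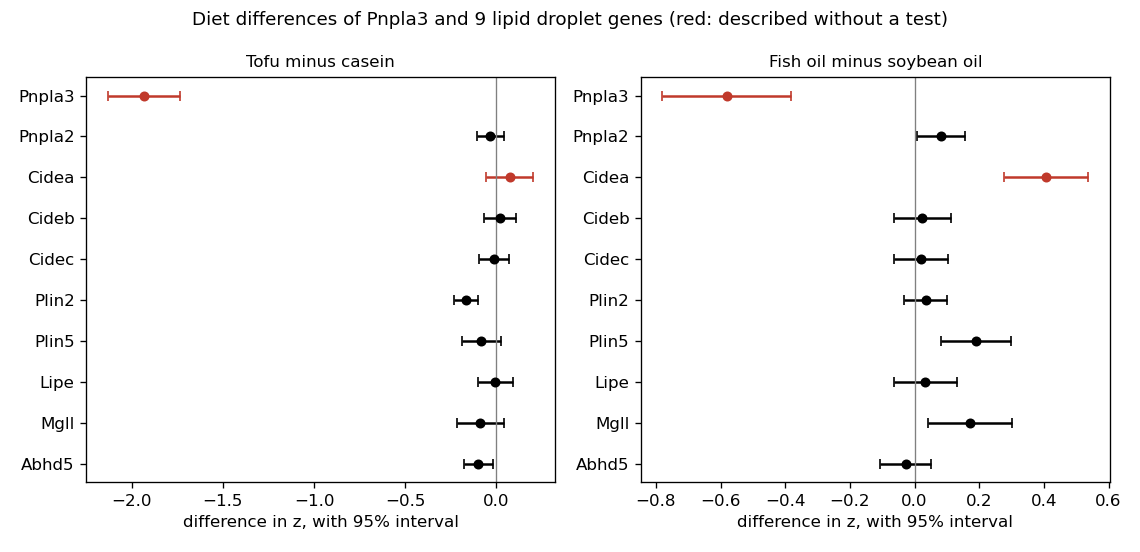
Differences in z (horizontal axes, points with 95% intervals) of the 10 genes for tofu minus casein (left) and fish oil minus soybean oil (right), from limma over 20 arrays. Pnpla3 stands at -1.93 and -0.58, Cidea at 0.41 for oil, and the other 8 genes lie between -0.17 and 0.19. Red marks genes described without a test, whose intervals are not to be read as one, and the panels have different scales.

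Further genes of the droplet, of lipid hydrolysis and of lipogenic transcription were read as lists. Among 18 other droplet coat and structure genes the median protein difference was 0.01, as over all genes. Of the 18, 0 were called higher and 1 was called lower with tofu, where 0.921% of all genes were called. This was Hsd17b13, a droplet enzyme of hepatocytes, whose z was 1.61 to 1.74 in TF and 1.57 to 1.82 in TS, against 1.84 to 2.01 in CF and 1.85 to 1.93 in CS. All tofu rats were below all casein rats, a 1.45-fold lower level (-0.21, SE 0.03, adjusted p = 0.00422 by limma). The call was lost without the 4 low 5′ beta-actin arrays (adjusted p = 0.0517) and with the rat number as a block (adjusted p = 0.0547). Plin3 had the largest protein difference of the 18 (-0.29, SE 0.07), which did not pass (adjusted p = 0.0593 by limma). For oil 0 of the 18 were called, where 0.302% of all genes were (median 0.04, with 15 above 0). The largest oil differences, neither of which passed, were those of Fitm2 (0.13, adjusted p = 0.701) and Fitm1 (0.13, adjusted p = 1.0), which bind triacylglycerol as droplets form. The Fitm1 means were below every array median in all 4 groups, so its difference (SE 0.17) is that of a dim probe set.

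Of 20 other patatin-like and neutral lipid hydrolases 17 were measured. Of these, 1 was called higher and 3 were called lower with tofu (median difference -0.01), where 0.921% of all genes were called. Ces1d, a carboxylesterase that hydrolyses triacylglycerol for lipoprotein assembly, was 1.81-fold higher (0.34, SE 0.05, adjusted p = 0.000887), with group means of 2.61 in TF, 2.57 in TS, 2.37 in CF and 2.14 in CS. Ddhd1, a phospholipase of phosphatidic acid, was 2.22-fold lower (-0.46, adjusted p = 0.0158), with means of 0.39 in TF, 0.59 in TS, 0.87 in CF and 1.03 in CS. Its call was lost without the 4 low 5′ beta-actin arrays (adjusted p = 0.079) and without the 3 least correlated arrays (adjusted p = 0.0692). Abhd6, a monoacylglycerol hydrolase, was 1.31-fold lower (-0.16, adjusted p = 0.0194), but its second probe set gave -0.08 (adjusted p = 0.867), and the call was lost without the 4 low 5′ beta-actin arrays (adjusted p = 0.0808). Ddhd2, a relative of Ddhd1 that acts on triacylglycerol in mouse brain, was 1.30-fold lower (-0.15, adjusted p = 0.047 by limma). Its means were low, at 0.13 in TF, 0.23 in TS, 0.29 in CF and 0.37 in CS. The Ddhd2 call held in only 3 of 20 fits that each left out 1 rat. With fish oil 1 of the 17 was called higher and 0 were called lower, where 0.302% of all genes were called. This was Ces2c, a carboxylesterase with lipase activity in mouse liver, 1.49-fold higher (0.23, adjusted p = 0.0316), with z of 0.81 to 1.09 in TF against 0.46 to 0.72 in TS and 0.63 to 0.91 in CF against 0.55 to 0.65 in CS. Its call held in 8 of 20 such fits, so neither it nor that of Ddhd2 withstood the loss of single rats.

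Of 14 lipogenic transcription factors and their partners 0 were called for oil (median -0.02), where 0.302% of all genes were. With tofu 0 were called higher and 1 was called lower (median -0.03), where 0.921% of all genes were called. Insig1, which holds the SREBP escort protein in the endoplasmic reticulum and is itself a target of SREBP, was 2.14-fold lower with tofu (-0.44, SE 0.08, adjusted p = 0.0127). Its z was 1.68 to 2.0 in TF and 1.44 to 2.26 in TS, against 2.14 to 2.30 in CF and 2.17 to 2.44 in CS, and the TS group overlapped with casein. Its call was lost without the 4 low 5′ beta-actin arrays (adjusted p = 0.0685) and without the 3 least correlated arrays, all from tofu rats (adjusted p = 0.0535). For oil the largest differences, neither of which passed, were those of Pparg (0.08, adjusted p = 0.948) and of Mlxipl, which encodes ChREBP (-0.08, adjusted p = 0.664). The Pparg means were below the highest array median in all 4 groups.

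**Figure D4:**
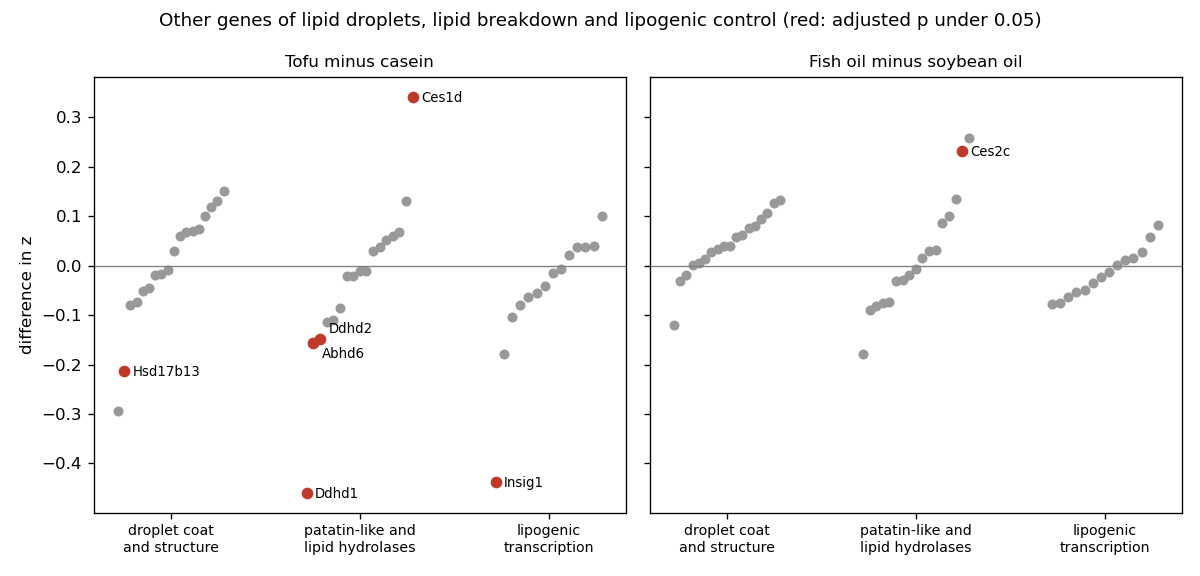
Differences in z (vertical axis) of each measured gene of 3 related lists (horizontal axis) for tofu minus casein (left) and fish oil minus soybean oil (right), 1 point per gene, with genes at an adjusted p under 0.05 in red and named. For tofu Ces1d stands at 0.34 and Ddhd1 and Insig1 at -0.46 and -0.44, and for fish oil Ces2c alone passed.

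Genes whose values were most like those of Pnpla3 were sought among 14215 genes over the 20 arrays, as a description. The highest Pearson correlations were those of Fasn (0.92), the fatty acid synthase, Acly (0.91), which makes cytosolic acetyl-CoA, Mycl (0.90), Dgkq (0.88) and Scd (0.86), the stearoyl-CoA desaturase. Fasn, for example, had means of 1.43 ± 0.13 in TF, 1.69 ± 0.21 in TS, 2.22 ± 0.29 in CF and 2.44 ± 0.24 in CS (SD, n = 5 each), the order of Pnpla3 over a narrower range. The lowest were those of Slc13a4 (-0.91), Cd14 (-0.91) and Ces1c (-0.90). All arrays share the 4 diets, so these values follow the group means. For rats around their group means, r with Pnpla3 was 0.50 for Fasn, 0.53 for Acly, 0.42 for Mycl, 0.10 for Dgkq and 0.02 for Scd. The highest such values were those of Mybbp1a (0.70), Rcvrn (0.69), Capn10 (0.68), Ero1a (0.66) and P2ry4 (0.66), while probe sets of Pnpla3 itself reached 0.33 to 0.53 with each other. These are the extremes among 14215 genes and were not tested against chance. The Rcvrn means were below every array median in all 4 groups. Among the droplet genes Plin2 was the most like Pnpla3 (0.74 over arrays, 0.31 around group means), followed by Abhd5 (0.57 and 0.21), and Cidea stood at -0.37 and 0.03.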

How the data were processed

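Liver RNA of 20 rats was hybridized to Affymetrix Rat Genome 230 2.0 arrays, 1 per rat. The deposited values are scores (z on a log scale, 1 per probe set), which the authors made with the SuperNORM service. By the study's methods a difference of 0.2 is a 1.41-fold difference, so folds here are 2 to the power of 2.5 times the difference. Software version, background treatment and probe summary are not given in the sources used here, and an array score carries no read depth, so precision is limited by the number of arrays.

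The table held 31099 probe sets and 63 missing values. After removal of 57 controls, 31039 with 3 or more values per group were tested. Current symbols were assigned by Entrez ID (20764 probe sets updated, 68 not), 20825 had 1 symbol, 436 several and 9778 none, and only the first are named. One mean per diet group was fitted with limma 3.58.1 in R 4.3.3, with Benjamini-Hochberg adjustment over all probe sets. Plots used matplotlib 3.10.9. The workflow was tested on simulated data. Same-numbered rats of different groups deviated together only weakly, so numbers were not used as pairs. The median r was 0.037 over 22 pairs, 1 of them above 0.1, against -0.008 over 128 pairs with different numbers. The labels give 1 array per rat, so the spread is that between rats together with their arrays.

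The genes and lists were chosen with earlier results of these data known. Named from the lists were genes called for protein or oil, at most 6 per list, or the pair with the largest differences where none was called, and from the likeness search the 5 highest and 3 lowest correlations and the 5 highest around group means. Plin3 was added for the largest protein difference of its list. Alternatives were quantile normalization, equal median and interquartile range, probe sets above 0, a rat-number block, no moderation, variance trend, array weights, other probe sets, only the groups compared, and leaving out each rat. A block for low 5′ beta-actin, removal of those arrays and removal of the 3 least correlated arrays were added after seeing the data.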

Additional observations from a re-analysis of the deposited data

Results flagged for a closer look

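Mgll in rat TF-4 had a z of 1.87, far from the other 4 TF rats, the nearest of which was at 1.5. The gap was 0.718 of the group's range, against a critical value of 0.71 for 5 rats. This was the only such value among 40 sets of 5 rats tested (10 genes in 4 diets), and chance alone gives about 1 in 20. The TF-4 array was also among the 3 least correlated with the rest.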

How the results depend on the processing

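Pnpla3 kept its direction for protein and oil under every alternative tried. Its protein difference was -1.53 with the mean of all its probe sets, -1.52 on 1380013_at and -1.13 on 1380643_at, and its oil difference was -0.32 on 1380643_at. Cidea kept an oil difference of 0.40 to 0.46, and 0.39 to 0.45 when each rat was left out in turn. The Plin2 protein difference stayed between -0.21 and -0.15, with adjusted p over its alternatives of 0.00092 to 0.109, and its call was lost under equal median and interquartile range (-0.15, adjusted p = 0.0617), with the rat number as a replicate block (-0.18, adjusted p = 0.0654), without the 4 low 5′ beta-actin arrays (-0.18), without the 3 least correlated arrays (-0.16) and on probe set 1382680_at (-0.17). The cause was not tested. It held in all 20 fits without 1 rat (-0.18 to -0.15, adjusted p 0.0119 to 0.0415). The count of the 8 tested genes called for protein was therefore 0 under the first 4 of these settings, against 1 otherwise, and for TF minus CF it was 1 (Plin2) after quantile normalization, against 0.

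Of the calls in the related lists, that of Ces1d held throughout (adjusted p 0.000122 to 0.0311). The highest adjusted p was 0.0547 for Hsd17b13, 0.178 for Ddhd1, 0.867 for Abhd6, 0.232 for Ddhd2, 0.349 for Ces2c and 0.0685 for Insig1. Each of these 6 calls was lost without the low 5′ beta-actin arrays. Those of Hsd17b13, Ddhd1, Abhd6, Ddhd2 and Ces2c were also lost with the rat-number block. Those of Ddhd1, Ddhd2, Ces2c and Insig1 were also lost without the least correlated arrays.

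Differences near 0 that had not passed changed sign. With the rat-number block these were Cideb protein (-0.0049), Cidec oil (-0.0041) and Lipe protein (0.012). Lipe protein was 0.023 with array weights, 0.0010 without the low 5′ beta-actin arrays, 0.046 without the least correlated arrays, 0.021 with the mean of its probe sets and 0.046 on 1387132_at, and Cidec protein was 0.0032 without the least correlated arrays. Plin2 oil was -0.0037 with the mean of its probe sets and -0.042 on 1382680_at, Mgll protein 0.044 on 1375355_at and Abhd5 protein 0.041 on 1379854_at. Leaving out each rat gave -0.00078 to 0.042 for Cideb protein, -0.00090 to 0.042 for Cideb oil, -0.028 to 0.0066 for Cidec protein and -0.023 to 0.020 for Lipe protein.

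The 173 protein calls over all probe sets became 357 among those above 0, 91 with the rat-number block and 289 with a variance trend. They became 72 without the low 5′ beta-actin arrays, 74 without the least correlated ones and 114 to 164 without 1 rat. The 60 oil calls became 27 with the rat-number block and 34 without the least correlated arrays. With the block for low 5′ beta-actin there were 215 protein calls and 67 oil calls. Single-diet counts ranged over 5 to 49 for TS minus CS (22), 6 to 54 for TF minus CF (21), 0 to 29 for CF minus CS (14) and 4 to 28 for TF minus TS (21).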
